A study of Mus musculus with 10 samples.

Results

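Spen, Rbm15 and Rbm15b encode the SPEN (split ends) family of RNA-binding proteins, and they were followed here through 3 peak lists from male mouse embryonic stem cells. The members were the 3 named genes, out of 21883 protein-coding genes of the RefSeq table, and a peak belonged to a gene if its midpoint lay in the gene's span on mm10. By this rule the genes held 13 of 12368 wild-type m6A peaks, 5 of 6764 knockout m6A peaks and 10 of 30992 YTHDC1 peaks. The genes were chosen by the number, width, position and genotype sharing of these same peaks, YTHDC1 peaks included. All values below therefore describe them and none is a test.

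N6-methyladenosine (m6A) peaks came from immunoprecipitates of polyA RNA, 2 from cells labelled Mettl3-WT and 2 from cells labelled Mettl3-KO, each with its own input. METTL3 is the catalytic subunit of the enzyme that methylates adenosines in messenger RNA. YTHDC1, the nuclear reader of m6A, was pulled down from total RNA of 1 sample of Halo-Ythdc1 knockin cells with 1 input (RNA immunoprecipitation, RIP). The cells were derived from mice of strain 129 and grown without feeders in serum and LIF. The labels do not say whether the knockout cells were 1 clone or whether a group's samples were separate cultures, and under cell type they give WT for the knockout samples too. The lists hold bare positions without strand or peak height, and none has values by replicate, so no replicate error can be given and the depth is unknown. One of the knockout precipitates carries the wild-type list in its label, so which samples stand behind each m6A list is not settled. Mettl3 was without peaks throughout, which does not check the genotype. Of 6 pluripotency genes 5 had a wild-type m6A peak, Pou5f1 being the one without, and 5 had a YTHDC1 peak, Klf4 being the one without. All 6, Pou5f1 included, had a knockout m6A peak. Over all protein-coding genes, 30.3% had a wild-type, 42.2% a YTHDC1 and 18.2% a knockout peak. Gene expression was not used here, so these shares, repeated below for the gene lists, also count any gene silent in these cells.

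SPEN family proteins carry RNA recognition motifs toward the amino terminus and a SPOC domain, a protein interaction module, at the carboxyl terminus. SPEN binds Xist, the RNA that silences an X chromosome, and brings in corepressors and the histone deacetylase HDAC3, and it also represses Notch target genes together with RBPJ. RBM15 and RBM15B bind RNA and recruit the m6A methyltransferase complex through WTAP, on Xist among other RNAs, and YTHDC1 reads m6A there. The genes of the adaptors therefore act in writing the mark that was mapped here on their own transcripts.

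All 3 genes lie on the minus strand, so their transcripts run from high to low coordinates. The bases around each transcription start are shown because every distance below is counted from that start. They come from RefSeq on GRCm38.p6, whose coordinates are those of mm10, and capitals mark the first 30 transcribed bases after 30 upstream bases.
Spen, chr4:141538568-141538627, minus strand: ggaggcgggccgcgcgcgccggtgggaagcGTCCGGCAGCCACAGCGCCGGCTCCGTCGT
Rbm15, chr3:107333260-107333319, minus strand: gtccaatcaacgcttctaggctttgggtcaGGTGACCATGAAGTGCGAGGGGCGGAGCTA
Rbm15b, chr9:106887046-106887105, minus strand: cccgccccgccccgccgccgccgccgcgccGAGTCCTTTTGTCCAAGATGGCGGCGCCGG
In the windows of 300 bases around these starts (250 before and 50 after), G and C made up 81.7% in Spen, 75.3% in Rbm15b and 54.3% in Rbm15, against a median of 52.7% over 32851 such windows. No peak of any list overlapped the window of any of the 3 genes. Wild-type m6A peaks overlapped 2.46% of all windows, knockout peaks 8.23% and YTHDC1 peaks 5.47%.

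Spen had the most m6A peak length of any protein-coding gene in the wild-type list. Its span on chromosome 4 (141467885 to 141538644, gene ID 56381) held 10 wild-type peaks that covered 11600 bp, or 16.4% of the span. The next genes were the cadherin gene Fat1 with 9200 bp in 17 peaks, the scaffold gene Ahnak with 9150 bp in 24 and the histone methyltransferase gene Kmt2d with 8850 bp in 10. Only 9 genes had 10 or more wild-type peaks, and a gene with at least 1 had a median of 1 peak and 700 bp. A wild-type peak was found in 30.3% of protein-coding genes. By number of peaks, 6 genes were ahead of Spen.

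Most of this length lay in a single tract toward the end of the gene. Reading from the transcription start, the first wild-type peak was 400 bp wide and lay 0.10 to 0.50 kb downstream (141538101 to 141538500). Then followed a peak of 1650 bp at 16.15 to 17.80 kb (141520801 to 141522450) and one of 600 bp at 21.20 to 21.80 kb (141516801 to 141517400). The next 37350 bp held no m6A peak of either list. After this gap came 5 peaks in a row, with widths of 1200, 600, 1200, 300 and 4400 bp, that ran from 59.15 to 67.10 kb. The gaps between them were 50, 50, 100 and 50 bp, and the edges of m6A peaks in both lists fall on a grid of 50 bp, so each gap was 1 or 2 grid steps. Distances are along the genome and include introns.

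Joined across gaps of up to 100 bp, the tract was 7950 bp long (141471501 to 141479450), with 96.9% of it inside peaks. It was the longest of 11639 such blocks in the wild-type list. The next were 3600 bp in Arhgef17, made of 2 peaks, and 3400 bp in Zbtb39, made of 3, and no other block joined 5 peaks. Its last peak, 4400 bp wide, was the widest of all 12368 wild-type peaks, ahead of 3250 bp in Plec and 3100 bp in Notch2. Spen is known for one very long internal coding exon. Exon positions were not used here, so whether the tract follows that exon was not tested. Beyond the tract, toward the end of the gene, lay a peak of 300 bp at 68.10 to 68.40 kb and one of 950 bp at 69.70 to 70.65 kb, which came within 66 bp of the annotated end. The neighbouring gene Zbtb17 runs on the opposite strand and its span overlaps the last 53 bp of Spen, which that peak did not reach. The nearest wild-type peak outside the span, of 250 bp, lay 734 bp past the end of Spen and inside Zbtb17.

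**Figure D1:**
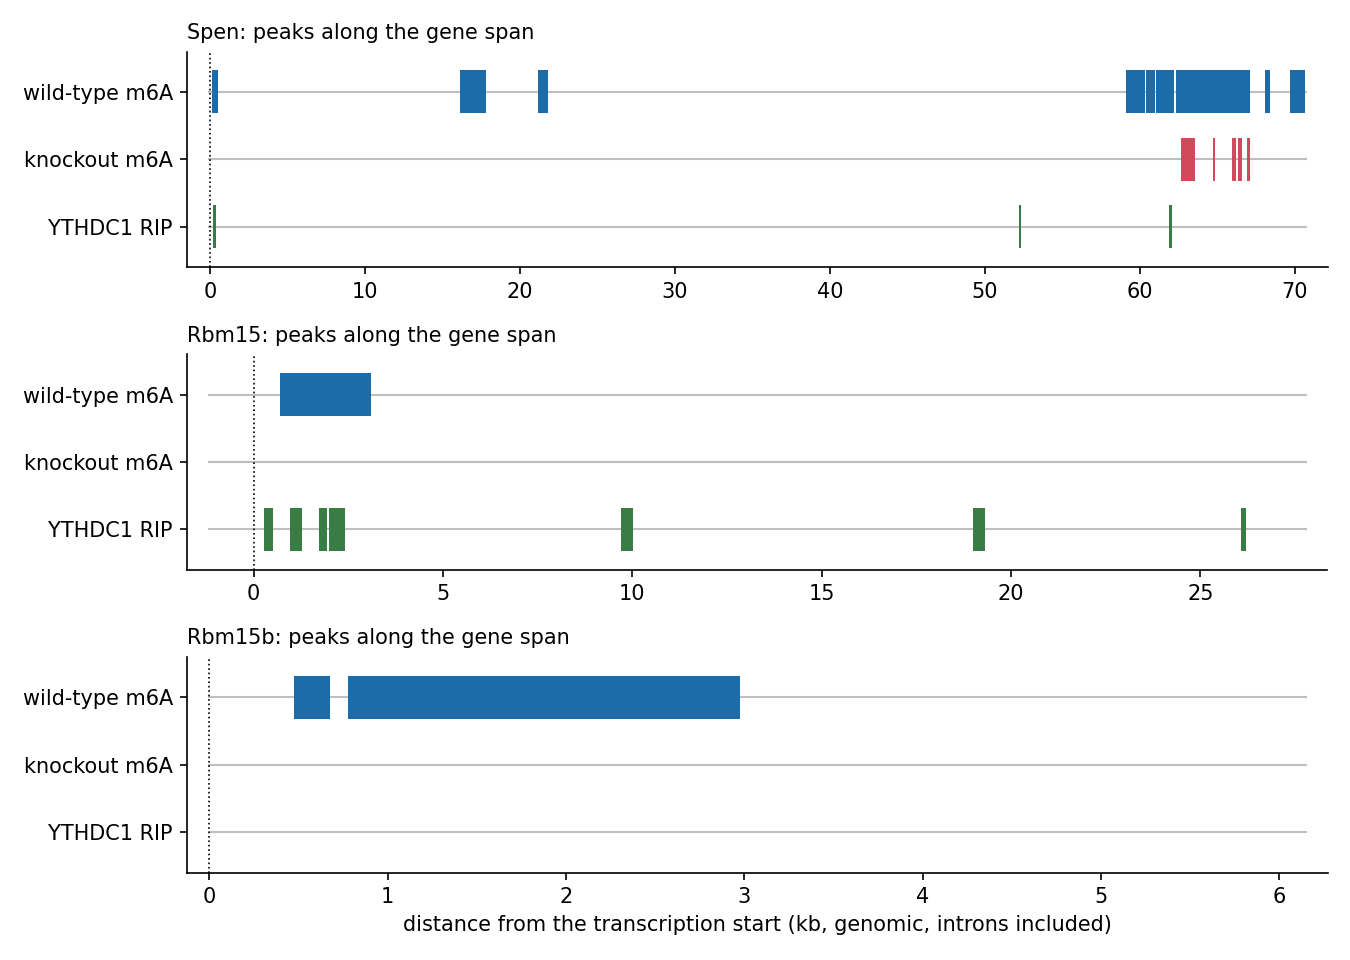
Positions of the peaks of the 3 lists along the spans of Spen, Rbm15 and Rbm15b, drawn to scale against the genomic distance from the transcription start in kb (dotted line at the start, grey line for the span, 1 row per list). Wild-type m6A in Spen gathers between 59.15 and 67.10 kb, that of Rbm15 and Rbm15b within 3.09 kb of the start, and only Spen has knockout peaks.

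All 5 knockout m6A peaks of Spen lay on its widest wild-type peak. They were 900, 100, 300, 250 and 200 bp wide in the direction of transcription, at 62.70 to 63.60, 64.75 to 64.85, 65.95 to 66.25, 66.35 to 66.60 and 66.95 to 67.15 kb. The widest of them (141475001 to 141475900) began at the same grid position as the 4400 bp wild-type peak, on the side of the transcription start. The last one reached 50 bp beyond the wild-type peak at its other edge. Together the knockout peaks covered 1750 bp, of which 1700 bp lay inside the wild-type peak and made up 38.6% of it. Over all wild-type peaks shared with the knockout list, the median share covered was 100%. The median wild-type peak was 400 bp wide and the widest knockout peak of the list 1450 bp. A single knockout peak could therefore not cover the 4400 bp peak, and the part of width in this share was not tested. Of all knockout peaks 21.4% overlapped a wild-type peak.

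The other 9 wild-type peaks of Spen, 7200 bp in all, overlapped no knockout peak. This includes the other 4 peaks of the tract, the nearest of which stood 50 bp from the widest knockout peak. In the whole list 11.6% of wild-type peaks overlapped a knockout peak, and 17.1% of genes with a wild-type peak had at least 1 that did. The 4400 bp peak was the only wild-type peak with 4 or more knockout peaks on it. The next, in the polyadenylation factor gene Cstf2t, carried 3, and 28 wild-type peaks carried 2 or more. A wide peak has more room for several narrow ones, and the part of width in this count was not tested. At 900 bp the widest knockout peak of Spen ranked at position 20 of 6764. Its knockout peaks were not at the edge of the gene, since the one closest to the annotated end lay 3566 bp from it. What the antibody bound at the knockout peaks was not tested.

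Spen held 3 YTHDC1 peaks, none of them on its widest m6A peak. They were 239, 109 and 200 bp wide, against a median width of 203 bp in the RIP list, and a gene with at least 1 had a median of 2. A YTHDC1 peak was found in 42.2% of protein-coding genes. The first lay wholly inside the m6A peak nearest the transcription start, 0.16 to 0.40 kb downstream (141538195 to 141538433). The third lay wholly inside a 1200 bp m6A peak of the tract, at 61.91 to 62.11 kb (141476483 to 141476682). The second, at 52.24 to 52.35 kb, stood alone in the long stretch without m6A peaks, 6798 bp from the nearest one. The widest m6A peak held no YTHDC1 peak, the nearest being 582 bp away, and no knockout peak of Spen overlapped one, against 22% of all knockout peaks. Both m6A peaks with YTHDC1 on them were found in the wild-type list alone.

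**Figure D2:**
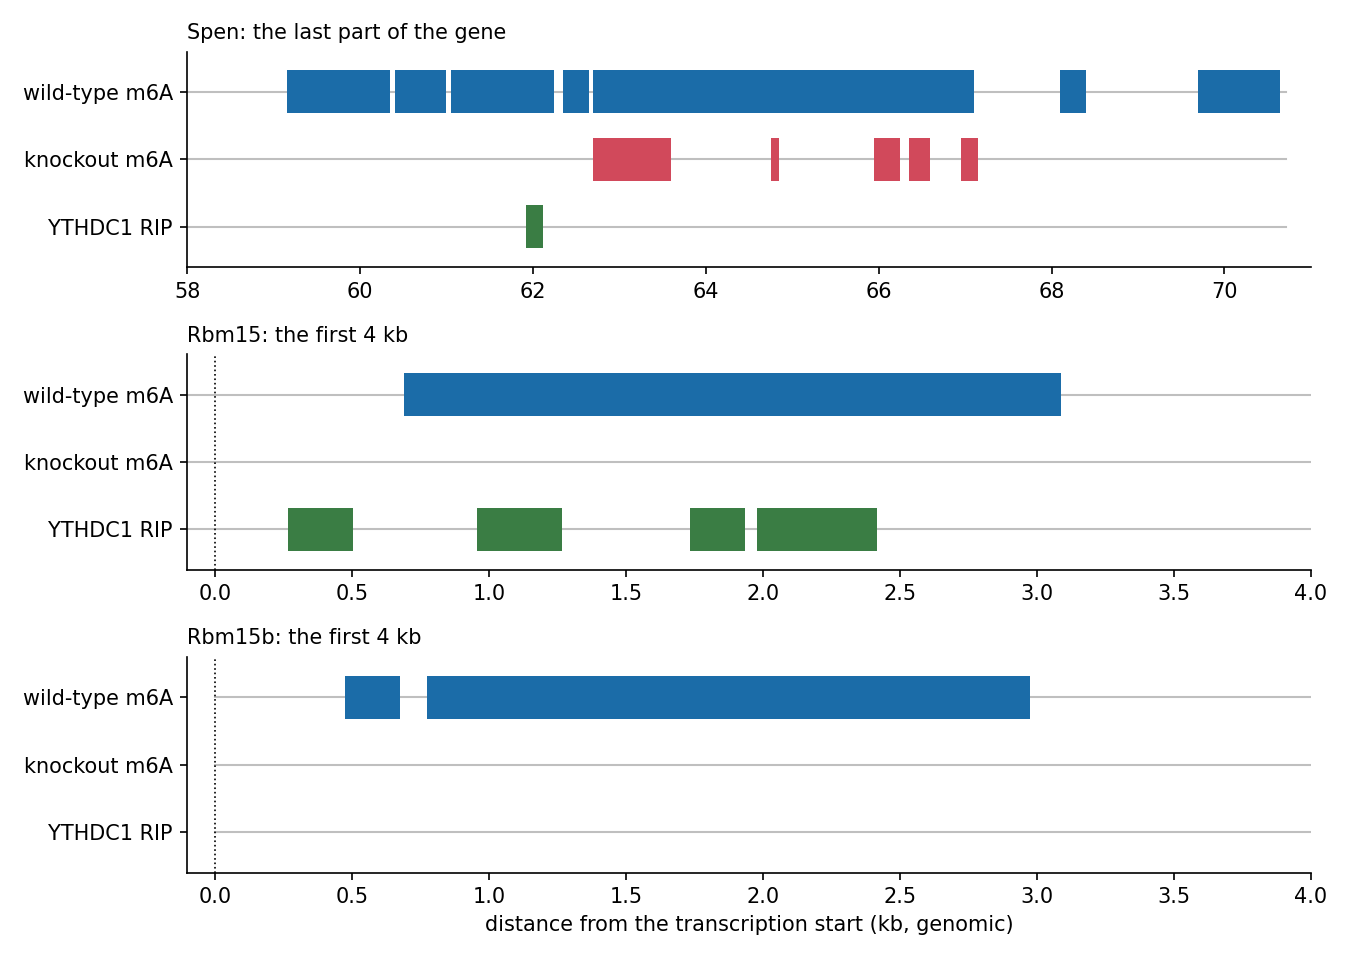
Enlarged view of the last part of Spen (upper panel) and of the first 4 kb of Rbm15 and Rbm15b, with 1 row per list against the distance from the transcription start in kb. In Spen the 5 knockout peaks lie under the 4400 bp wild-type peak and the YTHDC1 peak under a 1200 bp peak of the tract, while in Rbm15 3 YTHDC1 peaks lie within the 2400 bp wild-type peak.

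Rbm15 carried a single wide m6A peak near its start, seen in the wild-type list alone, and many YTHDC1 peaks. Its span on chromosome 3 (107305511 to 107334460, gene ID 229700) held 1 wild-type peak of 2400 bp (107330201 to 107332600), 0.69 to 3.09 kb downstream of the transcription start. Its width placed it among the 32 widest of the list, and it covered 8.29% of the span. The annotated span begins 1171 bp upstream of the start used here, and that stretch held no peak of any list. The nearest knockout m6A peak was 51000 bp away. Knockout peaks were found in 18.2% of protein-coding genes and in 38% of those with a wild-type peak, so their absence was the more common state. Of the 43 wild-type peaks of 2200 bp or more, 37.2% overlapped a knockout peak. This limit is the width of the widest Rbm15b peak, and the widest peak of each member is among the 43.

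In the same span lay 7 YTHDC1 peaks, a number reached by 391 of the 21883 genes. The first 4 fell within 2.41 kb of the start, with widths of 236, 308, 200 and 438 bp. The first of these, at 0.27 to 0.50 kb, stopped 186 bp short of the m6A peak. The other 3 lay wholly inside it, at 0.96 to 1.26, 1.73 to 1.93 and 1.98 to 2.41 kb, and covered 946 bp or 39.4% of its length. No wild-type peak in the whole list held more than 3 YTHDC1 peaks, and 4 held 3: that of Rbm15 and narrower ones in Epm2aip1, Cic and Hexim1. Those genes encode an interactor of the glycogen phosphatase laforin, a transcriptional repressor and an inhibitor of the elongation factor P-TEFb.

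The other YTHDC1 peaks of Rbm15 lay far from its called m6A peak. They were 310 bp wide at 9.71 to 10.02 kb, 319 bp at 18.99 to 19.31 kb and 117 bp at 26.09 to 26.20 kb, and stood 6619, 15902 and 22997 bp from the wild-type peak. The last of them (107307087 to 107307203) also lay in the span of Slc16a4, a transporter gene on the opposite strand that overlaps 6605 bp of the Rbm15 span. The list has no strand, so this peak cannot be assigned to either gene. Given to the shorter gene, it would leave Rbm15 with 6 YTHDC1 peaks. Another YTHDC1 peak, of 146 bp, lay 63 bp past the end of the Rbm15 span and inside Slc16a4. With the span extended by 1000 bp, Rbm15 would have 8.

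Rbm15b, the closest relative of Rbm15, had 1 wide and 1 narrow wild-type m6A peak and no peak in the other lists. Its span of 6148 bp on chromosome 9 (106880928 to 106887075, gene ID 109095) held a wild-type peak of 200 bp at 0.47 to 0.67 kb (106886401 to 106886600) and, 100 bp further, one of 2200 bp at 0.78 to 2.97 kb (106884101 to 106886300). Together they covered 39.0% of the span, against a median of 2.69% over genes with a wild-type peak. The gene is short, which raises this share. The nearest knockout peak was 3650 bp and the nearest YTHDC1 peak 4503 bp away, both from the smaller peak. Of the genes with a wild-type peak, 74.5% also had a YTHDC1 peak, and 18% had neither a YTHDC1 nor a knockout peak. A wild-type peak of 200 bp lay 727 bp past the end of the gene, inside the neighbouring gene Dcaf1, which runs on the opposite strand.

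The wide m6A peaks of both adaptor genes took nearly the same stretch after the transcription start. That of Rbm15 ran from 689 to 3088 bp and that of Rbm15b from 775 to 2974 bp, so the near edges differed by 86 bp and the far edges by 114 bp. On this axis all 2200 bp of the Rbm15b peak fell within the stretch of the Rbm15 peak. Among 9492 wild-type peaks in genes with a known start, 7.34% began within 1 kb downstream of one. Of the 35 such peaks of 2200 bp or more, 5 did so (14.3%), and the peaks of Rbm15 and Rbm15b were 2 of them. That limit is the width of the Rbm15b peak, and these 2 peaks raise the share they are read against. The likeness was seen first and then measured, and it is a description. It also depends on the starts used. The annotated span of Rbm15 begins 1171 bp upstream of its start, while that of Rbm15b begins at its start. Counted from the span ends, the edges would lie further apart. The genes differed in the RIP list, with 3 YTHDC1 peaks on the wide peak of Rbm15 and none on that of Rbm15b. Spen differed from both: its tract lay at the far end, and only 3.45% of its wild-type peak length fell in the first 10 kb.

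YTHDC1 peaks in the members lay either wholly inside a wild-type m6A peak or apart from any. Of the 10 YTHDC1 peaks in the 3 genes, 5 overlapped a wild-type m6A peak. This was so for 5.64% of all YTHDC1 peaks and for 12.8% of those in genes with a wild-type peak. In the members, 3 of the 5 lay on the single wide m6A peak of Rbm15. Wide m6A peaks leave more room for overlap, and the part of width in this share was not tested. The m6A lists came from polyA RNA and the YTHDC1 list from total RNA of Halo-Ythdc1 knockin cells. The part of this difference in the overlaps was not tested either. Seen from the m6A side, 2 of 10 wild-type peaks of Spen, the 1 of Rbm15 and 0 of 2 of Rbm15b overlapped a YTHDC1 peak, against 13.5% of the whole list and 23.3% of the 43 peaks of 2200 bp or more. At least 1 such peak was found in 21.5% of genes with a wild-type peak. The 3 m6A peaks of the members with a YTHDC1 peak on them were without a knockout peak, as were 82.1% of all such peaks. In the whole list 12.6% of peaks without and 20.9% of peaks with a knockout peak overlapped a YTHDC1 peak.

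**Figure D3:**
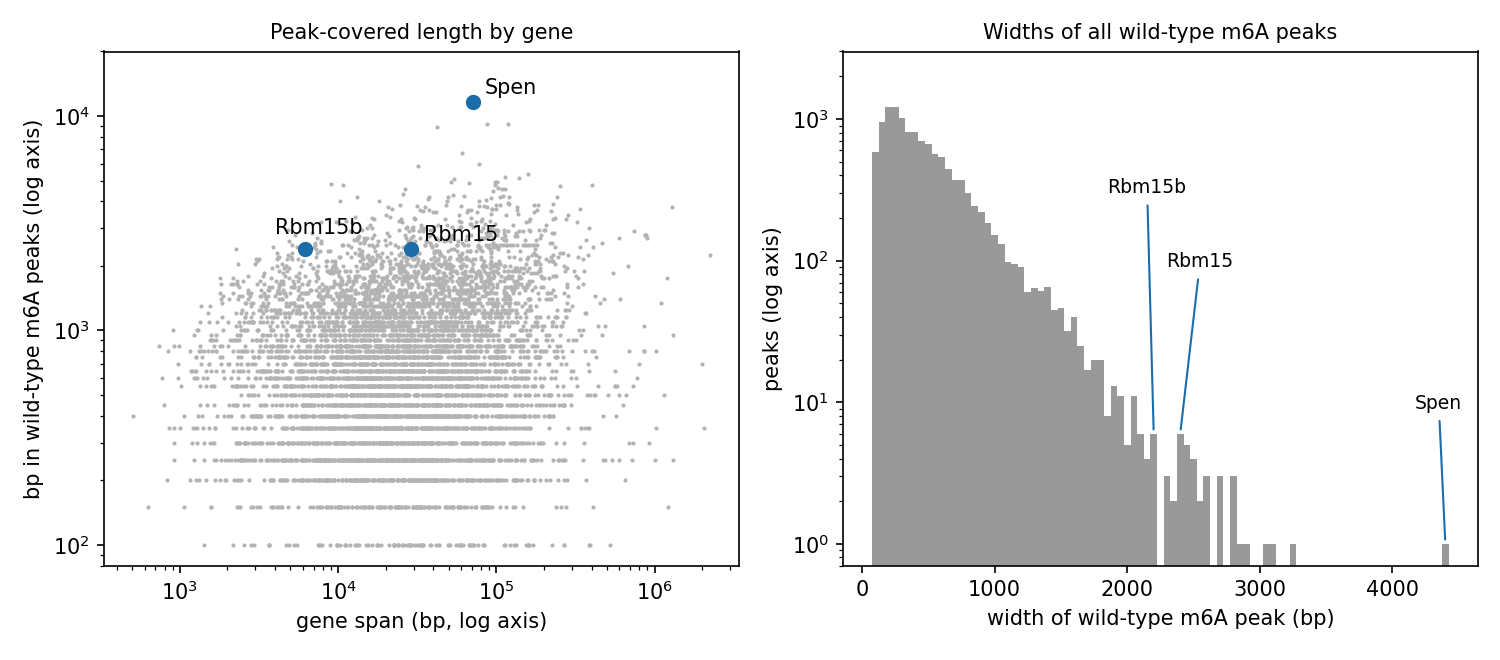
Left, bp in wild-type m6A peaks against gene span for the protein-coding genes with a peak (1 point per gene, log axes, genes with overlapping spans can share peaks), with the members in blue; right, number of wild-type m6A peaks by width in bp (log count axis), with the widest peak of each member named. Spen has the longest cover, 11600 bp, and the widest peak, 4400 bp, and Rbm15 and Rbm15b lie in the upper tail of widths at 2400 and 2200 bp.

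Among the genes of the m6A methyltransferase complex, the adaptors had the widest wild-type peaks. The list of 8 holds the catalytic subunit gene Mettl3, its partner Mettl14, the scaffolds Wtap and Virma, Zc3h13, the E3 ligase gene Cbll1, and Rbm15 and Rbm15b. A wild-type peak was found in 7 of 8, a knockout peak in 4 and a YTHDC1 peak in 6, against 30.3%, 18.2% and 42.2% of all protein-coding genes. The widest wild-type peak was 1350 bp in Cbll1, 950 bp in Virma, 750 bp in Zc3h13, 700 bp in Wtap and 150 bp in Mettl14. Wtap, Virma, Zc3h13 and Cbll1 had knockout peaks, with 1, 3, 5 and 2, and Mettl14, Rbm15 and Rbm15b had a wild-type peak and no knockout peak. Wtap had 6 YTHDC1 peaks, next to the 7 of Rbm15, and 1 of its 3 wild-type peaks overlapped one. The median wild-type peak length was 1800 bp over the list and 0 over all protein-coding genes. Rbm15 and Rbm15b were chosen by these same peaks, enter the counts of this list and raise its median.

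The SPOC domain is shared with a few genes outside the family. Dido1, a chromatin-associated regulator, had 7 wild-type, 2 knockout and 4 YTHDC1 peaks, and its widest wild-type peak measured 3050 bp. Phf3, a regulator of transcription elongation that binds RNA polymerase II, had 7, 1 and 6, with a widest wild-type peak of 1000 bp. Its YTHDC1 peaks included one of 4384 bp. Spocd1, which acts in the silencing of transposons in germ cells, had no peak in any list. With the members, 5 of these 6 genes had a wild-type, 3 a knockout and 4 a YTHDC1 peak (30.3%, 18.2% and 42.2% of all protein-coding genes), and the median wild-type length was 2725 bp. The members were chosen by these same peaks, so these counts and this median are not independent of that choice.

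The partners of SPEN in Xist silencing and Notch repression were counted in the same way. Of 13 protein-coding genes, 11 had a wild-type, 7 a knockout and 12 a YTHDC1 peak, again against 30.3%, 18.2% and 42.2% of all, and the median wild-type length was 650 bp. Ncor1, which encodes a corepressor that carries HDAC3, had 800 bp in 3 wild-type peaks, and 4 knockout peaks. Hdac3, the deacetylase gene, had 1 wild-type peak of 300 bp and no knockout peak. Rbpj, the DNA-binding factor of Notch signalling, had 1 wild-type peak of 650 bp, 3 knockout peaks and 12 YTHDC1 peaks. In 4 of the 13 genes, Ctbp2, Hnrnpk, Hnrnpu and Ythdc1, a wild-type peak overlapped a knockout peak, and in 2, Hnrnpk and Ythdc1, one overlapped a YTHDC1 peak. Over all genes with a wild-type peak, of which this list has 11, these shares were 17.1% and 21.5%. Ciz1 and Lbr, which encode a nuclear matrix protein and the lamin B receptor, had YTHDC1 peaks alone, with 2 and 3. Pcgf5, of a Polycomb complex, had 2 wild-type peaks alone. Kmt2d, which binds SPEN and acts at Notch target genes, had the longest cover of the 13, with 8850 bp in 10 wild-type peaks, no knockout peak and 1 YTHDC1 peak. The span of Xist held no wild-type, 1 knockout and 2 YTHDC1 peaks, and without strand these cannot be told from peaks of an RNA on the opposite strand.

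**Figure D4:**
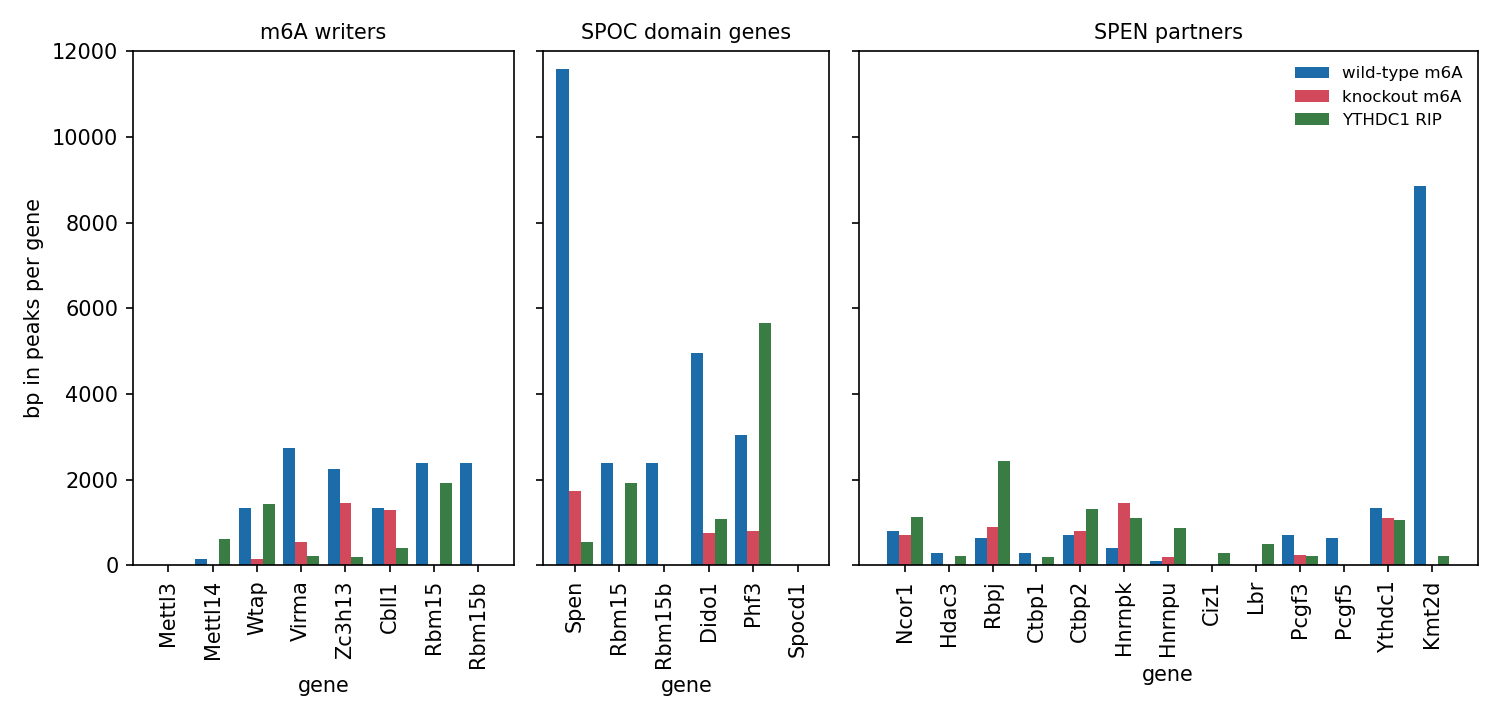
Bp in the peaks of each list (bars, blue for wild-type m6A, red for knockout m6A, green for YTHDC1 RIP) for the m6A writer genes, the genes with a SPOC domain and the protein-coding partners of SPEN. Spen at 11600 bp of wild-type peaks is followed by Kmt2d at 8850 bp and Dido1 at 4950 bp.

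The genes most like each member were found from the peak length in the 3 lists, as the distance of log2(1 + bp) over the 3 values. Genes with Gm or Rik names and the members were left out of this ranking, and ties were ordered by likeness in span. For Spen these were the homeobox gene Zfhx2 and the methyltransferase gene Kmt2a (both 1.09) and the cytoskeletal linker gene Plec (1.18), with 5850, 5950 and 6750 bp of wild-type peaks. For Rbm15 they were Tnrc6b, a scaffold of microRNA silencing (0.10), Btbd9 (0.16) and Lrrc8d, a subunit of volume-regulated anion channels (0.25). Their spans are 115253 bp or more, against 28950 bp for Rbm15, and their widest wild-type peaks were 950, 1200 and 850 bp against 2400 bp. For Rbm15b they were the ubiquitin ligase gene Rnf26 (0.00), Zfp592 (0.00) and C2cd3 (0.03), all without knockout and YTHDC1 peaks. Rnf26 had a single wild-type peak of 2400 bp in a span of 2271 bp. The members were less like each other by this measure, with 10.91 between Rbm15 and Rbm15b, 11.16 between Spen and Rbm15 and 14.29 between Spen and Rbm15b. A length of 0 against any peak weighs heavily in this measure.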

How the data were processed

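The authors deposited 3 peak lists with chromosome, start and end in bp and no score. The submitters' processing notes name mm10 as the build, MACS2 2.1.2, SAMtools 1.9, the aligners HISAT2 2.2.0 and STAR 2.7, and Trim Galore 0.6.4. The sources used here do not give their roles, the peak threshold or any pooling of replicates. All m6A edges lie on a 50 bp grid and 0.513% of RIP peaks do, so the lists were made by different steps. The number and width of peaks grow with depth and enrichment, which are unknown, and are not amounts of m6A or binding.

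Peaks were assigned by midpoint to every RefSeq span of GRCm38.p6 that held it (21883 protein-coding genes on chromosomes 1 to 19, X and Y). Starts and strand came from the RefSeq promoter table. An overlap was 1 bp or more, and coordinates count from 1. Python 3.11.15 and pandas 2.3.3 were used, and the code was checked on simulated intervals. The members and lists were chosen with earlier results of these data known. Named genes were the members, those described from the lists, the 3 genes most like each member, and genes ranking next to a member, added after their values were seen. One gene of the lists was left out of all counts and is not reported here. Exons, proteins and the sequence under the peaks were not used here. No test was run.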

Additional observations from a re-analysis of the deposited data

How the results depend on the processing

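No paired analysis was possible because the lists hold no value per replicate, and for the same reason no replicate could be left out. Of 72 values under alternative settings for 15 counts, 65 stayed within 1.5 times the reported count and 7 did not. Several of the counts were 0, and every 0 that stayed 0 is among the 65. Dropping narrow peaks or asking for more overlap could not move a 0, so the 65 overstates the stability of the other counts. With peaks wider than the median of their list alone, Spen had 2 knockout peaks in place of 5 and 1 YTHDC1 peak in place of 3, with 0 of its wild-type peaks overlapping a YTHDC1 peak in place of 2, and Rbm15b had 1 wild-type peak in place of 2. With edges up to 100 bp apart counted as overlapping, 2 wild-type peaks of Spen met a knockout peak in place of 1. With peaks up to 100 bp apart joined, as in the blocks of the report and added after seeing the data, Spen had 6 wild-type peaks in place of 10 and Rbm15b 1 in place of 2. Giving a peak in several spans to the shortest gene, chosen after seeing the data, was among the settings that moved no count by more than 1.5 times. Depth is unknown, so a missing peak is not evidence that a site lacks m6A or YTHDC1.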
